A study of Gallus gallus with 5 samples.

Results

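WNT5A, FGF19, APCDD1 and NDP are secreted or membrane-bound signalling genes that were read here in chicken tissue of Hamburger-Hamilton stage 8 (HH8) after it was grafted into an HH4 gastrula. They are 4 of the 6940 genes named by symbol in the single-cell RNA-sequencing tables. They were chosen with earlier values of these libraries known, for their difference between HH8 grafts and HH4 hosts at 0 hr and for their change by 3 hr, so those contrasts are described here and carry no test. Donor embryos expressed eGFP and hosts were wild-type. Somite progenitors from the 90% region of the primitive streak were moved to the matching position of the host. In heterochronic HH8-HH4 grafts the donor had been incubated for 30 hours, and in homochronic HH4-HH4 grafts for 20 hours, as had every host. The tissue around the graft was collected 3 hr after grafting, or about 30 minutes after it (0 hr), and 5 to 10 grafts were pooled for each library.

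Each condition is thus represented by 1 library. The second library labelled as a replicate of HH4-HH4 0 hr shared 2755 barcodes with the first, and both were counted as 1 sample. Grafted cells were taken as barcodes with at least 3 eGFP transcripts (unique molecular identifiers, UMIs) and host cells as barcodes with 0, each with at least 2000 UMIs in all. HH8-HH4 gave 116 graft and 232 host barcodes at 3 hr, and 2029 graft and 1726 host barcodes at 0 hr. HH4-HH4 gave 72 graft and 181 host barcodes at 3 hr, and 720 graft and 1764 host barcodes at 0 hr. Median depth ran between 8838 and 47194.5 UMIs per barcode in these groups, and of the 943 barcodes of HH8-HH4 3 hr only 43.4% reached 2000 UMIs. The libraries shared at most 2 barcodes with each other. With 1 library per condition no p-value can be given, and all intervals below are 95% intervals for counting error only. They hold no difference between embryos, grafts or libraries.

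Wnt ligands act through Frizzled receptors and their co-receptors. In the canonical branch they stabilise beta-catenin and so switch on genes such as AXIN2, LEF1 and SP5, whereas WNT5A is the best known ligand of the branch that steers cell movement and polarity without beta-catenin. APCDD1 is a membrane glycoprotein that inhibits Wnt signalling at the cell surface. NDP encodes Norrin, a ligand unrelated in sequence to Wnt proteins that activates beta-catenin through FZD4 and LRP5. FGF19 is a secreted fibroblast growth factor, known in the chick embryo from inner ear and neural induction. In the vertebrate tail end, Wnt and FGF signals are kept high together with the CDX factors and 5′ HOX genes, and they hold progenitor cells in an undifferentiated state while the axis extends.

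The identity of the grafts was checked first with HOXA7, HOXB8 and CDX4, which mark posterior tissue and are not among the 4 genes. A level is given as CPM, the number of a gene's UMIs in every 1000000 UMIs of a group. HOXA7 was at 1794 CPM in HH8 grafts and 20.3 CPM in their hosts at 3 hr, and at 2434 and 24.5 CPM at 0 hr. HOXB8 was at 1163 CPM in HH8 grafts against 14.8 CPM in their hosts at 0 hr. In HH4-HH4 0 hr, HOXA7 had 0 UMIs in grafts, which allows up to 0.284 CPM (3 UMIs), and 1 UMI in hosts. In HH4-HH4 3 hr, HOXA7 was at 1.89 CPM in grafts and 2.50 CPM in hosts. HOXB8 was at 42.8 and 92.3 CPM there, so at 3 hr it was not limited to HH8 tissue. As a group, the eGFP-positive barcodes of HH8-HH4 were therefore marked as HH8 tissue by HOXA7 at both times. Not every one of them was. A HOXA7 UMI was found in 86.2% at 3 hr and 98.9% at 0 hr, at median depths of 19188 and 8838 UMIs. The part of the barcodes without HOXA7 in the changes by 3 hr was not tested. The host level of HOXA7 was 1.13% of the graft level at 3 hr and 1.01% at 0 hr, which is a measure of how much graft RNA or how many graft cells the host barcodes could hold.

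WNT5A was, like these markers, higher in HH8 grafts than in their hosts at 0 hr, with a smaller difference. It was at 615 CPM (604 to 626) in HH8 grafts at 0 hr, against 109 CPM (104 to 114) in their hosts. The ratio was 5.66 (5.38 to 5.95). The host level was 17.7% of the graft level, well above the 1.01% seen for HOXA7, and hosts of HH4-HH4, which held no HH8 tissue, also had 55.2 CPM.

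FGF19 stood at 636 CPM (625 to 647) in HH8 grafts and 105 CPM (100.4 to 110.4) in their hosts at 0 hr, a ratio of 6.04 (5.74 to 6.36). APCDD1 was at 337 CPM (329 to 345) in HH8 grafts and 66.5 CPM (62.6 to 70.6) in their hosts, a ratio of 5.07 (4.75 to 5.41). These genes and WNT5A thus differed by similar factors between HH8 grafts and HH4 hosts.

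NDP did not follow them. It was at 43.8 CPM (40.8 to 46.8) in HH8 grafts and 29.0 CPM (26.4 to 31.7) in their hosts at 0 hr, a ratio of 1.51 (1.35 to 1.69). Norrin transcripts were therefore scarcer than those of the other genes in HH8 tissue as counts, and the host around it had 66.2% of the graft level. At 0 hr NDP thus stood out less from the surrounding host than the other genes did.

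On a log2 scale with 10 CPM added to each level, 3 of the 4 genes were at least 2-fold higher in HH8 grafts than in hosts at 0 hr, where 1.8% of the 4387 genes with at least 100 UMIs were. None was 2-fold lower, where 4.13% were. FGF19 ranked 14, WNT5A 15, APCDD1 22 and NDP 311 from the top. Since the genes were picked on this contrast, the ranks describe where they sit and are no evidence of their own.

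By 3 hr in the HH4 host, all 4 genes were lower in HH8 grafts than at 0 hr. WNT5A was at 285 CPM (264 to 308) at 3 hr against 615 CPM at 0 hr, which is 0.464 (0.428 to 0.502) of the earlier level. FGF19 was at 237 CPM (218 to 258) at 3 hr against 636 CPM at 0 hr, a ratio of 0.373. Both ligands were still well detected in the grafts at 3 hr, with 660 and 548 UMIs.

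The Wnt inhibitor APCDD1 differed most. It was at 55.4 CPM (46.2 to 65.8) in HH8 grafts at 3 hr against 337 CPM at 0 hr, a ratio of 0.164 (0.137 to 0.196). Its log2 difference of -2.41 was the lowest of the 4105 genes compared. NDP was at 7.79 CPM (4.61 to 12.3) at 3 hr against 43.8 CPM at 0 hr, a ratio of 0.178 that rests on 18 UMIs at 3 hr. All 4 genes were at least 2-fold lower, where 0.877% of the genes compared were lower and 1.22% higher, and this was a contrast on which they were picked. Each time is a library of its own, so time and library cannot be told apart.

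The HOX markers changed less over the same time, whereas CDX4 changed nearly as much as WNT5A. HOXA7 had a log2 difference of -0.44 and HOXB8 of -0.22 between HH8 grafts at 3 hr and 0 hr. CDX4 was at 556 CPM at 3 hr against 1103 CPM at 0 hr, a log2 difference of -0.98 beside the -1.08 of WNT5A. HH8 grafts at 3 hr thus kept most of their HOX level while CDX4 and the 4 signalling genes were lower.

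**Figure D1:**
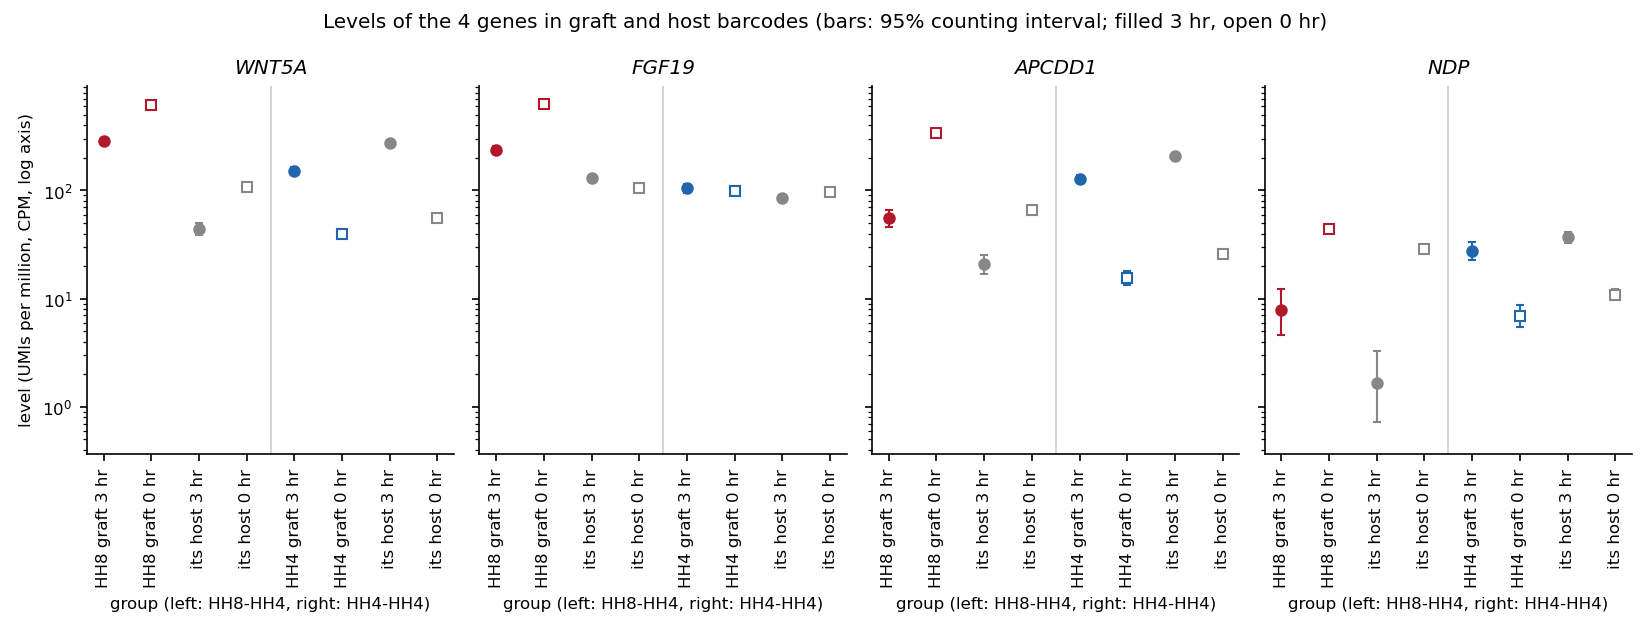
Levels of WNT5A, FGF19, APCDD1 and NDP (CPM, log axis) in graft and host barcodes of the HH8-HH4 libraries (left of the grey line) and HH4-HH4 libraries (right), with 95% counting intervals, filled at 3 hr and open at 0 hr. In HH8 grafts all 4 genes lie lower at 3 hr than at 0 hr (APCDD1 at 55.4 against 337 CPM), whereas in HH4 grafts WNT5A, APCDD1 and NDP lie higher at 3 hr.

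Over the 8 groups of barcodes, the order of levels differed between the genes. WNT5A was highest in HH8 grafts at 0 hr, followed by HH8 grafts at 3 hr (285 CPM) and hosts of HH4-HH4 at 3 hr (276 CPM), whose intervals overlapped. It was lowest in hosts of HH8-HH4 at 3 hr and HH4 grafts at 0 hr, at 44.2 and 39.8 CPM with overlapping intervals. FGF19 was highest in HH8 grafts at 0 hr, then in HH8 grafts at 3 hr and their hosts at 3 hr, and the other groups lay between 84.8 and 105 CPM. Among HH4 tissues FGF19 thus had a narrow range, with 130 CPM as its highest level.

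APCDD1 was second highest in hosts of HH4-HH4 at 3 hr, at 208 CPM (198 to 218), and next in HH4 grafts at 3 hr. HH8 grafts at 3 hr came only after these, at 55.4 CPM, with an interval that overlapped that of hosts of HH8-HH4 at 0 hr (62.6 to 70.6). NDP was at 43.8 CPM in HH8 grafts at 0 hr and 37.1 CPM (33.0 to 41.6) in hosts of HH4-HH4 at 3 hr, whose intervals overlapped, and lowest in hosts of HH8-HH4 at 3 hr. For both genes, HH8 grafts of 3 hr stood below the graft and host of HH4-HH4 at 3 hr and above their own hosts.

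To see how far HH8 grafts still stood apart from the tissue around them, graft and host of the same library were compared at 3 hr. WNT5A was at 285 CPM in HH8 grafts and 44.2 CPM (38.4 to 50.6) in their hosts, a ratio of 6.46 (5.52 to 7.58), close to the 5.66 of 0 hr. The host level of WNT5A was itself lower at 3 hr. FGF19 was at 237 CPM in HH8 grafts and 130 CPM (119.8 to 140.5) in their hosts, a ratio of 1.83 (1.62 to 2.05) where that of 0 hr was 6.04. Of the 4 genes, FGF19 had thus lost most of its distance from the host.

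APCDD1 was at 55.4 CPM in HH8 grafts and 20.7 CPM (16.9 to 25.2) in their hosts at 3 hr, a ratio of 2.67 (2.04 to 3.51). NDP had 18 UMIs in HH8 grafts and 8 in their hosts, and its ratio of 4.65 (1.92 to 12.4) has a wide interval. The HH8 grafts of 3 hr also belong to the contrast of times on which the genes were picked. Among the 3 genes with at least 100 UMIs, WNT5A and APCDD1 were at least 2-fold higher in grafts than in hosts, where 2.43% of 3542 genes were. None was 2-fold lower, where 3.27% were, and FGF19 was below 2-fold. APCDD1 had a log2 difference of 1.09 there, and was short of 2-fold at 0.66 with an eGFP minimum of 1 UMI and at 0.97 with 10.

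**Figure D2:**
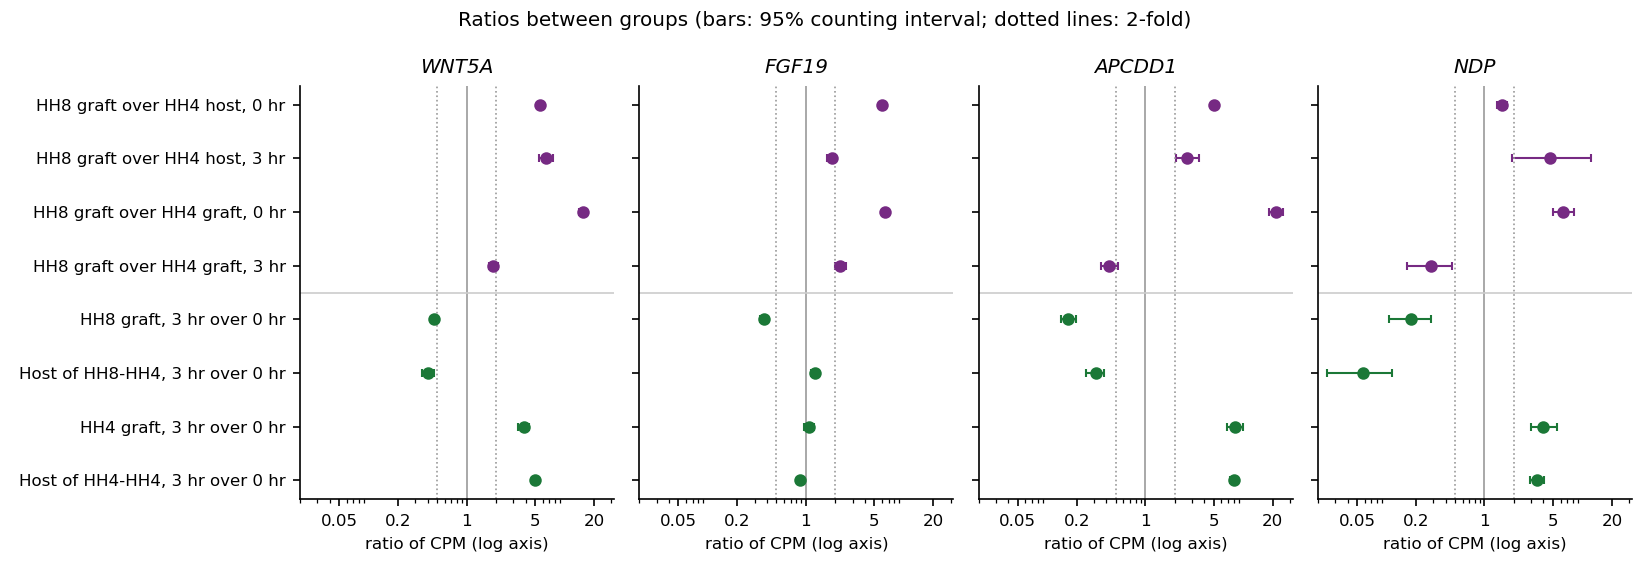
Ratios of CPM (log axis) of the 4 genes in 8 comparisons, with 95% counting intervals and dotted lines at 2-fold. Changes by 3 hr lie left of 1 in HH8 grafts for every gene and right of 1 in HH4 grafts, where FGF19 stays close to 1 at 1.07.

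The HH4 tissues gave a different picture. In HH4 grafts at 0 hr the levels were 39.8 CPM for WNT5A, 98.2 CPM for FGF19, 15.6 CPM for APCDD1 and 6.92 CPM for NDP. In the hosts of those grafts they were 55.2, 96.7, 26.1 and 10.9 CPM in the same order. HH4 grafts and their hosts were thus alike in FGF19, with a ratio of 1.02 (0.944 to 1.09), and the grafts were lower in the other genes, with ratios between 0.597 and 0.722. None of the 4 genes reached 2-fold in either direction, where 0.181% of 4414 genes were higher and 0.068% lower.

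Set against HH4 grafts of the other 0 hr library, HH8 grafts were 15.4-fold higher in WNT5A, 6.47-fold in FGF19, 21.7-fold in APCDD1 and 6.32-fold in NDP. All 4 genes were at least 2-fold higher, where 2.59% of 4322 genes were higher and 4.3% lower. The HH8 grafts of 0 hr are the same barcodes on which the genes were picked, so this count is no evidence of its own. The comparison sets a library against a library, so stage and library cannot be told apart in it. NDP differed by 6.32-fold here and by 1.51-fold from the host of its own library, as NDP was at 29.0 CPM in hosts of HH8-HH4, against 6.92 CPM in HH4 grafts and 10.9 CPM in hosts of HH4-HH4.

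HH4 grafts differed between the times in the other direction. WNT5A was at 152 CPM (140.4 to 164) at 3 hr against 39.8 CPM at 0 hr, a ratio of 3.81 (3.37 to 4.32). APCDD1 was at 128 CPM (118 to 140) at 3 hr against 15.6 CPM at 0 hr, a ratio of 8.25 (6.91 to 9.88). NDP was at 27.7 CPM (22.9 to 33.2) at 3 hr against 6.92 CPM at 0 hr, a ratio of 4.00. In HH4 grafts the ligand WNT5A, the Wnt inhibitor and Norrin were all higher at 3 hr.

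FGF19 was at 105 CPM at 3 hr against 98.2 CPM at 0 hr in HH4 grafts, a ratio of 1.07 (0.957 to 1.20) whose interval spans 1. Thus 3 of the 4 genes were at least 2-fold higher at 3 hr, where 1.26% of 3961 genes were higher and 1.74% lower. At 3 hr HH4 grafts stood at 0.550 of their hosts in WNT5A, 0.617 in APCDD1, 0.746 in NDP and 1.24 in FGF19, and none of the 4 genes reached 2-fold there, where 0.833% of 3840 genes were higher and 0.286% lower. The difference between the changes of HH8 and HH4 grafts was not tested, since each rests on a single pair of libraries.

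At 3 hr the grafts of both stages were closer to each other. WNT5A was then at 285 CPM in HH8 grafts and 152 CPM in HH4 grafts, a ratio of 1.88 (1.68 to 2.10), and FGF19 at 237 and 105 CPM, a ratio of 2.25 (1.98 to 2.56). APCDD1 was at 55.4 CPM in HH8 grafts and 128 CPM in HH4 grafts, a ratio of 0.432 (0.353 to 0.524). NDP was at 7.79 and 27.7 CPM, a ratio of 0.281 (0.161 to 0.463). The order of HH8 and HH4 grafts in APCDD1 and NDP was therefore the reverse of that at 0 hr. The HH8 grafts of 3 hr are part of the contrast of times on which the genes were picked. At the 2-fold limit 1 gene (FGF19) was higher and 2 were lower, where 2.32% of 3445 genes were higher and 2.32% lower. These calls lay close to the limit: the log2 difference of FGF19 was 1.10, and 0.94 or 0.83 with an eGFP minimum of 1 or 10 UMIs and 0.94 without the deepest 5% of barcodes. That of APCDD1 was -1.08, and -0.89 with equal weight per barcode. WNT5A was at 0.87, and at 0.15 with an eGFP minimum of 1 UMI.

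Host tissue showed the same contrast between the graft types in WNT5A, APCDD1 and NDP, which bears on how their changes in grafts can be read. FGF19 did not share it. In hosts of HH4-HH4, WNT5A was at 276 CPM at 3 hr against 55.2 CPM at 0 hr, APCDD1 at 208 against 26.1 CPM, and NDP at 37.1 against 10.9 CPM. The ratios were 5.01, 7.97 and 3.41, and that of FGF19 was 0.877 (0.805 to 0.955). Hosts of HH4-HH4 thus moved with their grafts in WNT5A, APCDD1 and NDP. These 3 of the 4 genes were at least 2-fold higher, where 1.71% of 4387 genes were higher and 1.82% lower.

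In hosts of HH8-HH4, WNT5A was at 44.2 CPM at 3 hr against 109 CPM at 0 hr, a ratio of 0.407 (0.351 to 0.469). APCDD1 was at 20.7 CPM at 3 hr against 66.5 CPM at 0 hr, a ratio of 0.312, and NDP at 1.68 against 29.0 CPM, a ratio of 0.0578 on 8 UMIs at 3 hr. FGF19 was at 130 CPM at 3 hr against 105 CPM at 0 hr, a ratio of 1.23 (1.12 to 1.35). In the HH8 grafts themselves the ratio of FGF19 was 0.373 (0.342 to 0.406), so graft and host differed in direction. In these hosts 3 of the 4 genes were at least 2-fold lower, where 0.623% of 4171 genes were lower and 0.216% higher.

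CDX4 moved with WNT5A, APCDD1 and NDP in the hosts. It was at 19.9 CPM at 3 hr against 132 CPM at 0 hr in hosts of HH8-HH4, and at 525 against 48.6 CPM in hosts of HH4-HH4. The node markers were mixed. The summed level of the 6 node genes CHRD, GSC, SHH, ADMP, GNOT2 and FOXA2 was 2155 CPM at 3 hr against 988 CPM at 0 hr in hosts of HH8-HH4, and 751 against 1131 CPM in hosts of HH4-HH4, where ADMP was at 0 at 3 hr. CHRD made up most of the sum in hosts of HH8-HH4, at 1647 CPM at 3 hr against 435 CPM at 0 hr, while GSC was at 64.1 against 226 CPM and ADMP at 82.5 against 92.2 CPM. In hosts of HH4-HH4 GNOT2 was at 417 CPM at 3 hr against 111 CPM at 0 hr, and the other 5 node genes were lower. Hosts of the 3 hr and 0 hr libraries thus differed in these markers of position as well, and the part of this in the 4 genes was not tested.

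Shares of barcodes with a UMI were read with each barcode thinned to 2000 UMIs, where a share falls with the mean level, so that fewer carrying cells and less RNA per cell cannot be told apart. After thinning, 44.0% (34.8 to 53.5) of HH8 graft barcodes at 3 hr had a WNT5A UMI, against 69.2% (67.1 to 71.2) at 0 hr. For FGF19 the shares were 31.0% (22.8 to 40.3) at 3 hr and 62.5% (60.4 to 64.7) at 0 hr. For APCDD1 they were 10.3% (5.46 to 17.4) at 3 hr and 45.7% (43.5 to 47.9) at 0 hr. In each case fewer barcodes gave a UMI at 3 hr at the same depth.

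Without thinning, 89.7% of HH8 graft barcodes at 3 hr and 97.0% at 0 hr had a WNT5A UMI, at median depths of 19188 and 8838 UMIs. WNT5A was therefore detected in most HH8 graft barcodes at both times. Unthinned shares for APCDD1 were 45.7% at 3 hr and 86.0% at 0 hr, and its median level per barcode was 0 CPM at 3 hr and 286 CPM at 0 hr. Most HH8 graft barcodes thus gave no APCDD1 UMI at 3 hr, although they were deeper.

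The hosts show what shares HH4 tissue gave at the same depth. At 3 hr, 37.6% (30.5 to 45.1) of the hosts of HH4-HH4 had a WNT5A UMI, which overlaps the 44.0% of HH8 grafts, and 32.6% had an APCDD1 UMI, above the 10.3% of HH8 grafts. At 0 hr and 2000 UMIs, 19.3% of the hosts of HH8-HH4 had a WNT5A UMI, 15.7% an FGF19 UMI, 10.8% an APCDD1 UMI and 4.92% an NDP UMI. The NDP share in HH8 grafts was 8.38% (7.21 to 9.67) at 0 hr, and 2.59% (0.537 to 7.37) or 3 barcodes at 3 hr. The APCDD1 share of HH8 grafts at 3 hr was thus close to that of HH8-HH4 hosts at 0 hr, whereas the shares of WNT5A and FGF19 were above those of the same hosts.

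**Figure D3:**
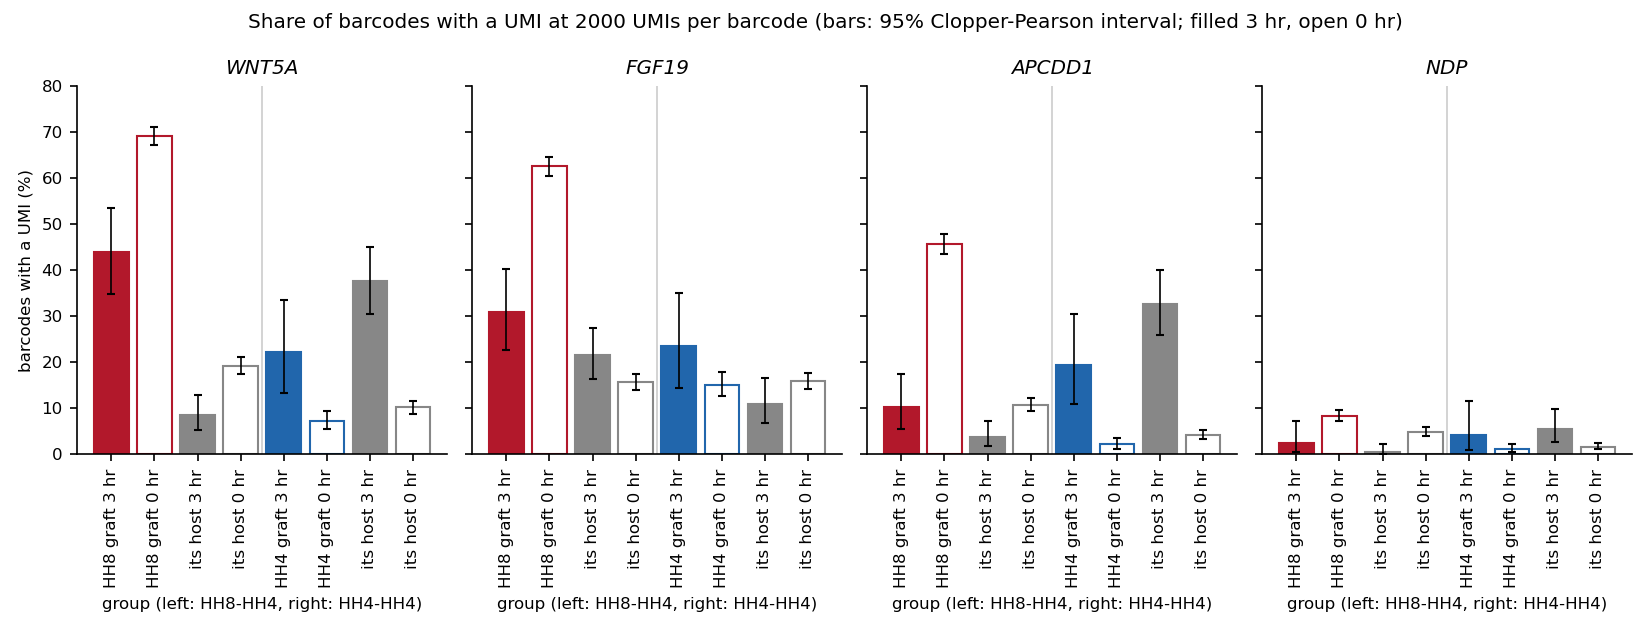
Share of barcodes (%) with at least 1 UMI of each gene after thinning to 2000 UMIs, in graft and host barcodes at 3 hr (filled) and 0 hr (open), with 95% Clopper-Pearson intervals. WNT5A reached 69.2% of HH8 graft barcodes at 0 hr and 44.0% at 3 hr, and NDP stayed below 10% in every group.

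UMIs of the 4 genes were also counted within the same HH8 graft barcodes, and whether they met more often than their single shares would give was not tested. At 2000 UMIs, 36.2% of HH8 graft barcodes at 3 hr and 7.39% at 0 hr had no UMI of any of the 4 genes. UMIs of exactly 2 of the genes were found in 17.2% at 3 hr and 41.1% at 0 hr, and of all 4 in 0 barcodes at 3 hr and 35 barcodes (1.72%) at 0 hr. An FGF19 UMI was seen in 65.0% (62.4 to 67.5) of the barcodes with a WNT5A UMI and 57.1% (53.1 to 61.0) of those without at 0 hr. APCDD1 was seen in 46.6% (43.9 to 49.2) of barcodes with WNT5A and 43.7% (39.7 to 47.7) of those without. NDP went the other way at 0 hr, with 7.76% (6.42 to 9.29) and 9.76% (7.55 to 12.4). So did FGF19 at 3 hr, with 27.5% (15.9 to 41.7) of barcodes with WNT5A and 33.8% (22.6 to 46.6) of those without. HH8 graft cells at 0 hr were thus not split into cells with WNT5A and cells with APCDD1.

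In 3 of the 4 host groups APCDD1 was seen more often in barcodes with WNT5A. In HH4-HH4 hosts at 3 hr, 48.5% (36.2 to 61.0) of barcodes with WNT5A had APCDD1, and 23.0% (15.6 to 31.9) of those without. In HH8-HH4 hosts at 3 hr it was seen in 0 of 20 barcodes with WNT5A, with an upper bound of 16.8%, and in 4.25% of those without. In HH8-HH4 hosts at 0 hr, 20.1% (15.9 to 24.8) of barcodes with WNT5A had APCDD1, and 8.54% (7.13 to 10.1) of those without. In HH4-HH4 hosts at 0 hr the shares were 11.7% (7.37 to 17.3) and 3.35% (2.52 to 4.35). FGF19 differed less with WNT5A, being seen at 0 hr in 18.0% of barcodes with and 15.1% of barcodes without WNT5A in HH8-HH4 hosts, and in 13.9% and 16.2% in HH4-HH4 hosts.

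To place the genes in cell types, each barcode was assigned to the marker list in which it stood highest, if it stood clearly above the next. Of 6840 barcodes, 1711 (25.0%) lay within 1.25-fold of the ratio that an assignment needs, so the lists grade the cells rather than divide them. In HH8 grafts at 0 hr, 922 of 2029 barcodes (45.4%) were assigned to the ectoderm and neural border list and 1062 to no list. FABP7 gave 52150 of the 56557 UMIs of that list there, with DLX5 at 169 CPM and TFAP2A at 60.2 CPM. FABP7 also differed between HH8 grafts and their hosts, at 2736 against 396 CPM. Ectoderm-marked here thus means mostly high in FABP7, and it does not settle the kind of cell. Levels were similar in both groups of barcodes. WNT5A was at 669 CPM in the ectoderm-marked barcodes and 577 CPM in those of no list, FGF19 at 684 and 609 CPM, APCDD1 at 311 and 365 CPM, and NDP at 37.9 and 48.6 CPM.

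At 3 hr only 27 of 116 HH8 graft barcodes (23.3%) were ectoderm-marked, 76 had no list and 11 were endoderm-marked. The summed level of the ectoderm list was 1885 CPM at 3 hr against 2967 CPM at 0 hr. That of the node list was 256 CPM at 3 hr against 58.7 CPM at 0 hr, and that of the endoderm list 375 against 208 CPM. Within the endoderm list CXCR4 went the other way, at 20.3 against 97.2 CPM. The paraxial mesoderm list was at 534 CPM at 3 hr against 901 CPM at 0 hr, but its genes were mixed. MSGN1, TBX6 and DLL1 were lower, at 77.0, 31.1 and 281 CPM at 3 hr against 228, 71.9 and 566 CPM. MEOX1, TCF15 and ALDH1A2 were higher, at 72.7, 50.2 and 22.1 CPM against 5.77, 21.0 and 7.97 CPM. The neural crest list was at 166 against 327 CPM. It was mostly SNAI2, at 159 against 325 CPM, while FOXD3 was at 6.49 against 1.84 CPM. SOX10 had 1 UMI at 3 hr and 0 at 0 hr. The paper describes SNAI2 as a regulator of the epithelial-to-mesenchymal transition in primitive streak cells. Hosts of HH8-HH4 had 437 CPM of SNAI2 at 0 hr, so this list is no measure of neural crest here. The blood and endothelium list was at 84.3 CPM at 3 hr against 28.5 CPM at 0 hr, with HBBA at 0 at both times. The heart list was at 16.0 against 0.839 CPM, on 37 UMIs at 3 hr. TNNT2 gave 33 of these, and MYL2 was at 0.433 against 0.262 CPM, so the heart list was mostly 1 gene. Markers of several other cell types thus differed together with the 4 genes, and their part in the result was not tested. The lower levels of the 4 genes at 3 hr were seen within both groups of barcodes that could be compared. This is again the contrast on which they were picked, and the split does not hold the kinds of cells fixed. In barcodes of no list the median level of the paraxial mesoderm list was 540 CPM at 3 hr against 1045 CPM at 0 hr. That of the node list was 98.0 against 0 CPM. In ectoderm-marked barcodes WNT5A was at 391 CPM at 3 hr against 669 CPM at 0 hr, FGF19 at 256 against 684 CPM, APCDD1 at 109 against 311 CPM and NDP at 3.42 (2 UMIs) against 37.9 CPM. In barcodes of no list WNT5A was at 276 against 577 CPM, FGF19 at 259 against 609 CPM, APCDD1 at 40.8 against 365 CPM and NDP at 10.0 against 48.6 CPM.

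APCDD1 at 3 hr was thus higher in ectoderm-marked HH8 graft barcodes, at 109 CPM (84.2 to 140), than in those of no list, at 40.8 CPM (31.2 to 52.4). The 11 endoderm-marked barcodes carried little of any of the genes, with 51.7 CPM of WNT5A and 11.5 CPM of FGF19. Their HOXA7 level was 97.6 CPM, against 2674 CPM in the ectoderm-marked barcodes, so that these eGFP-positive barcodes stood apart from the ectoderm-marked ones. On the log2 scale the difference of WNT5A between 3 hr and 0 hr was -0.76 in ectoderm-marked barcodes and so stayed short of 2-fold there, whereas it was -1.08 over all HH8 graft barcodes.

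In HH4 hosts the genes differed in the cells that carried them. Among barcodes assigned to a list in groups of at least 3, FGF19 was highest in node-marked ones, at 221 CPM (199 to 244) at 3 hr and 155 CPM (140.7 to 171) at 0 hr in hosts of HH8-HH4, and at 132 CPM (122 to 143) in hosts of HH4-HH4 at 0 hr. Epiblast-marked barcodes of the same hosts had 63.0, 72.0 and 64.0 CPM. The exception was HH4-HH4 3 hr, where 13 node-marked host barcodes had 38.6 CPM of FGF19 and 15 epiblast-marked ones 100.4 CPM. FGF19 in the HH4 gastrula was thus highest in node-marked cells at 0 hr, where CDX4 was at 14.8 and 3.74 CPM.

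NDP was found in paraxial mesoderm. It was at 74.9 CPM (67.1 to 83.4) in mesoderm-marked hosts of HH8-HH4 at 0 hr, against 7.07 CPM in epiblast-marked and 2.28 CPM in node-marked ones. Hosts of HH4-HH4 had 82.0 CPM (71.3 to 93.9) in mesoderm-marked barcodes at 3 hr and 37.6 CPM (32.2 to 43.8) at 0 hr. In hosts of HH8-HH4 at 3 hr, only 1 NDP UMI was found in the 21 mesoderm-marked barcodes, or 2.08 CPM (0.0526 to 11.6). The share of mesoderm-marked hosts in HH8-HH4 was 9.05% at 3 hr and 29.0% at 0 hr, so both the share of such cells and their NDP level were lower at 3 hr.

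WNT5A and APCDD1 were shared between epiblast and mesoderm and low in the node at 0 hr. In hosts of HH8-HH4 at 0 hr, WNT5A was at 142 CPM in epiblast-marked, 135 CPM in mesoderm-marked and 36.5 CPM in node-marked barcodes. APCDD1 was at 107, 40.1 and 10.3 CPM in the same lists. In hosts of HH4-HH4 at 0 hr WNT5A was at 88.8, 76.2 and 16.3 CPM, and APCDD1 at 43.6, 21.4 and 6.38 CPM. Both libraries gave the same order at 0 hr.

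At 3 hr the 13 node-marked hosts of HH4-HH4 had 383 CPM of WNT5A and 598 CPM of APCDD1, the highest levels of any list there. They also had 745 CPM of CDX4, against 3.74 CPM in node-marked barcodes of HH4-HH4 at 0 hr. Node-marked barcodes of the 3 hr library thus differed from those of 0 hr in a marker of position, and the part of that in the difference of a gene between them was not tested.

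**Figure D4:**
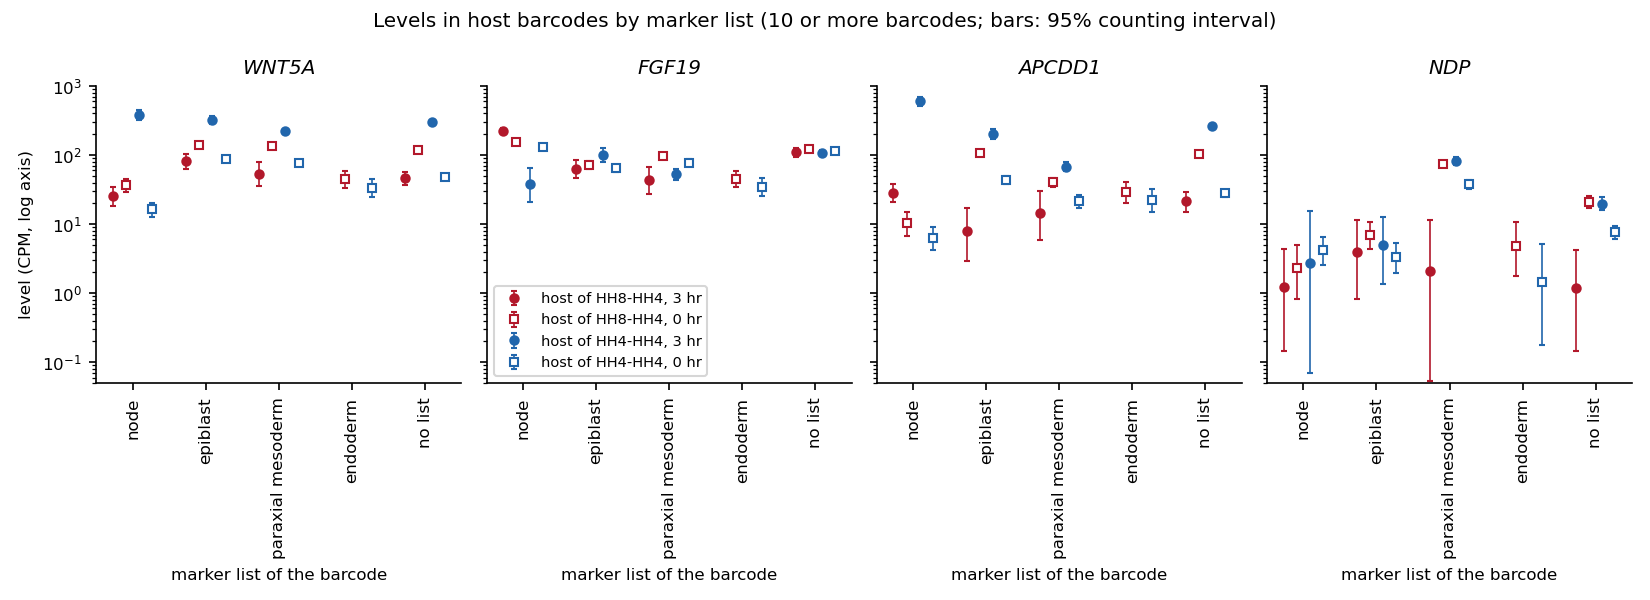
Levels of the 4 genes (CPM, log axis) in host barcodes by the marker list to which they were assigned, for the 4 libraries (red HH8-HH4, blue HH4-HH4, filled 3 hr, open 0 hr), with 95% counting intervals. FGF19 is highest in node-marked barcodes of 3 libraries (221, 155 and 132 CPM) and NDP in mesoderm-marked barcodes (74.9 CPM in HH8-HH4 at 0 hr).

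Since CDX4 moved with the genes between libraries, barcodes were also split by whether they kept a CDX4 UMI at 2000 UMIs, a split chosen after the values were seen. Barcodes without CDX4 in this split can still hold it. A CDX4 UMI was found in 93.1% of HH8 graft barcodes at 3 hr without thinning and 63.8% after it. In HH4-HH4 hosts at 0 hr these shares were 27.2% and 8.33%. In HH4-HH4 hosts at 0 hr, barcodes with CDX4 had 120 CPM (106 to 136) of WNT5A and those without had 49.4 CPM (46.6 to 52.2). APCDD1 was at 78.8 CPM with CDX4 and 21.4 CPM without. FGF19 was at 99.6 CPM with CDX4 and 96.4 CPM without, and NDP at 16.6 CPM (11.6 to 23.0) and 10.4 CPM (9.15 to 11.7). WNT5A and APCDD1 were thus higher in the barcodes of these hosts that kept a CDX4 UMI, while FGF19 was not. In HH8-HH4 hosts at 0 hr the order was the same, with FGF19 at 109 CPM with CDX4 and 105 CPM without. It did not hold throughout at 3 hr. FGF19 was at 99.6 CPM (90.3 to 109.5) with CDX4 and 68.2 CPM (60.1 to 77.1) without in HH4-HH4 hosts. APCDD1 was at 14.5 CPM (1.76 to 52.4) with CDX4 and 20.9 CPM without in HH8-HH4 hosts.

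Within barcodes with CDX4, HH8 grafts were still higher than their hosts at 0 hr. WNT5A was at 626 CPM in 1760 graft barcodes and 188 CPM in 321 host barcodes, a ratio of 3.33 in place of 5.66. FGF19 was at 636 and 109 CPM, a ratio of 5.86. APCDD1 was at 345 and 139 CPM, a ratio of 2.48 in place of 5.07, and NDP at 44.1 and 36.1 CPM. The stage difference of WNT5A and APCDD1 was smaller between barcodes that kept a CDX4 UMI, and that of FGF19 was nearly as large.

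The lower levels at 3 hr were also seen among HH8 graft barcodes with CDX4, in the contrast on which the genes were picked. WNT5A was at 331 CPM in 74 barcodes at 3 hr against 626 CPM in 1760 barcodes at 0 hr, and FGF19 at 267 against 636 CPM. APCDD1 was at 76.7 against 345 CPM. The log2 difference of WNT5A was -0.90 there, short of 2-fold. In the 42 HH8 graft barcodes of 3 hr that kept no CDX4 UMI, APCDD1 was at 16.0 CPM (8.52 to 27.4), below its level in those that kept one.

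Other genes of the same pathways were read from lists of Wnt and FGF ligands, receptors, inhibitors and targets. A gene is counted here when it had at least 100 UMIs in both groups together and differed at least 2-fold on the log2 scale with 10 CPM added. Of 7 Wnt ligands counted in HH8 grafts against hosts at 0 hr, only WNT5A was 2-fold higher and none was lower. Over all 4387 genes 1.8% were higher and 4.13% lower. The median log2 difference of the ligands was 0.32, against -0.08 over all genes. WNT8A, an early streak ligand, was at 326 CPM in HH8 grafts and 267 CPM in hosts. WNT5A was thus the Wnt ligand with the 2-fold difference at 0 hr, and that count includes the gene on which the contrast was picked. At 3 hr 2 of 4 Wnt ligands counted, WNT5A and WNT8A, were 2-fold higher in HH8 grafts than in hosts, and none was lower. Over all 3542 genes 2.43% were higher and 3.27% lower there. WNT8A was then at 375 CPM in HH8 grafts and 128 CPM in hosts.

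Of 13 Wnt and Norrin receptors, none was 2-fold higher in HH8 grafts at 0 hr and 3 were lower, beside 1.8% and 4.13% over all 4387 genes. ROR1, a receptor for Wnt5a, was at 9.18 CPM in HH8 grafts and 50.8 CPM in hosts, and the Frizzled receptors FZD7 and FZD5 were at 8.34 against 50.7 CPM and at 1.84 against 21.0 CPM. The Norrin receptor FZD4 was at 7.50 CPM in HH8 grafts and 7.83 CPM in hosts, and its co-receptor LRP5 at 23.9 and 30.1 CPM. FZD10 was higher and lay just short of the limit, at 102 CPM in HH8 grafts and 50.5 CPM in hosts (log2 0.89). The ligand WNT5A was therefore higher where ROR1 was lower, and the Norrin receptors hardly differed. Only 1 of 12 planar polarity genes listed, DAAM1, could be read.

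Of 8 Wnt inhibitors, APCDD1, which was picked on this contrast, was higher in HH8 grafts at 0 hr, while SFRP1 and CER1 were lower. Over all 4387 genes 1.8% were 2-fold higher and 4.13% lower, to be read beside each count of this paragraph. SFRP1, a secreted Frizzled-related protein, was at 11.2 CPM in HH8 grafts and 103 CPM in hosts. CER1, a secreted antagonist of anterior mesendoderm, was at 11.9 and 318 CPM. Among 14 beta-catenin targets and mediators 4 were higher and 3 were lower, with a median of -0.18. AXIN2, a feedback target, was at 158 CPM in HH8 grafts and 67.9 CPM in hosts, and SP8 at 81.7 and 19.5 CPM, but SP5 was at 296 and 670 CPM. CDX2 and CDX4 were higher, and CDX1 and TCF7L2 lower. Wnt target genes thus did not move in 1 direction with the stage of the tissue.

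Of 8 FGF ligands, 3 were 2-fold higher in HH8 grafts at 0 hr and none was lower, with a median of 0.59. Over all 4387 genes 1.8% were higher and 4.13% lower, to be read beside each count of this paragraph. FGF19, which is among the 3, was picked on this contrast. FGF8, the main FGF of the streak and tail bud, was at 753 CPM in HH8 grafts and 310 CPM in hosts, and FGF10 at 29.4 and 0.863 CPM. Of 3 FGF receptors, FGFR3 was lower, at 12.4 CPM in HH8 grafts and 85.1 CPM in hosts. Among 12 FGF targets and feedback genes none reached 2-fold with 10 CPM added, and the median was -0.05. IL17RD, at 101 and 45.6 CPM (log2 0.997), and SPRY2, at 73.5 and 34.2 CPM (log2 0.92), lay just short of that limit. DUSP6 and DUSP7 were lower, at 20.9 against 30.1 CPM and 38.8 against 57.4 CPM. The ligands FGF8, FGF10 and FGF19 were thus higher together, while the listed targets went in both directions.

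At 3 hr against 0 hr, FGF8 and FGF10 were lower as well as FGF19. Over all 4105 genes of this contrast 0.877% were 2-fold lower and 1.22% higher, to be read beside each count that follows. FGF8 was at 294 CPM in HH8 grafts at 3 hr against 753 CPM at 0 hr, and FGF10 at 6.06 against 29.4 CPM. This makes 3 of 8 FGF ligands lower and none higher (median -0.74, against 0.01 over all genes). FGF19, which is among the 3 and in the median, was picked on this contrast. Of 11 FGF targets 1 was lower, MYC, at 9.52 against 44.4 CPM. FGFR3 was higher, at 50.6 CPM at 3 hr against 12.4 CPM at 0 hr.

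On the Wnt side, 5 of 14 beta-catenin targets and mediators were lower in HH8 grafts at 3 hr and none was higher, with a median of -0.89, beside 0.877% lower and 1.22% higher over all genes. AXIN2 was at 40.2 CPM at 3 hr against 158 CPM at 0 hr, LEF1 at 48.0 against 128 CPM and SP5 at 106 against 296 CPM. MYC and T, the Brachyury gene of the streak, at 476 against 1125 CPM, were the others. Besides WNT5A, which was picked on this contrast, WNT5B was lower among 7 Wnt ligands, at 38.9 against 119 CPM. FZD10 was lower among 12 receptors, at 27.2 against 102 CPM. APCDD1 and these 5 genes were thus lower in the same comparison, and a relation between them was not tested.

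Other inhibitors went the opposite way. SFRP1 was at 35.0 CPM in HH8 grafts at 3 hr against 11.2 CPM at 0 hr, and CER1 at 61.0 against 11.9 CPM. Of 7 Wnt inhibitors 2 were therefore higher and 1 was lower, which is APCDD1 and was picked on this contrast. Both SFRP1 and CER1 were more frequent still in the hosts of these grafts, at 207 and 160 CPM at 3 hr, and the part of host cells in their level in graft barcodes was not tested.

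**Figure D5:**
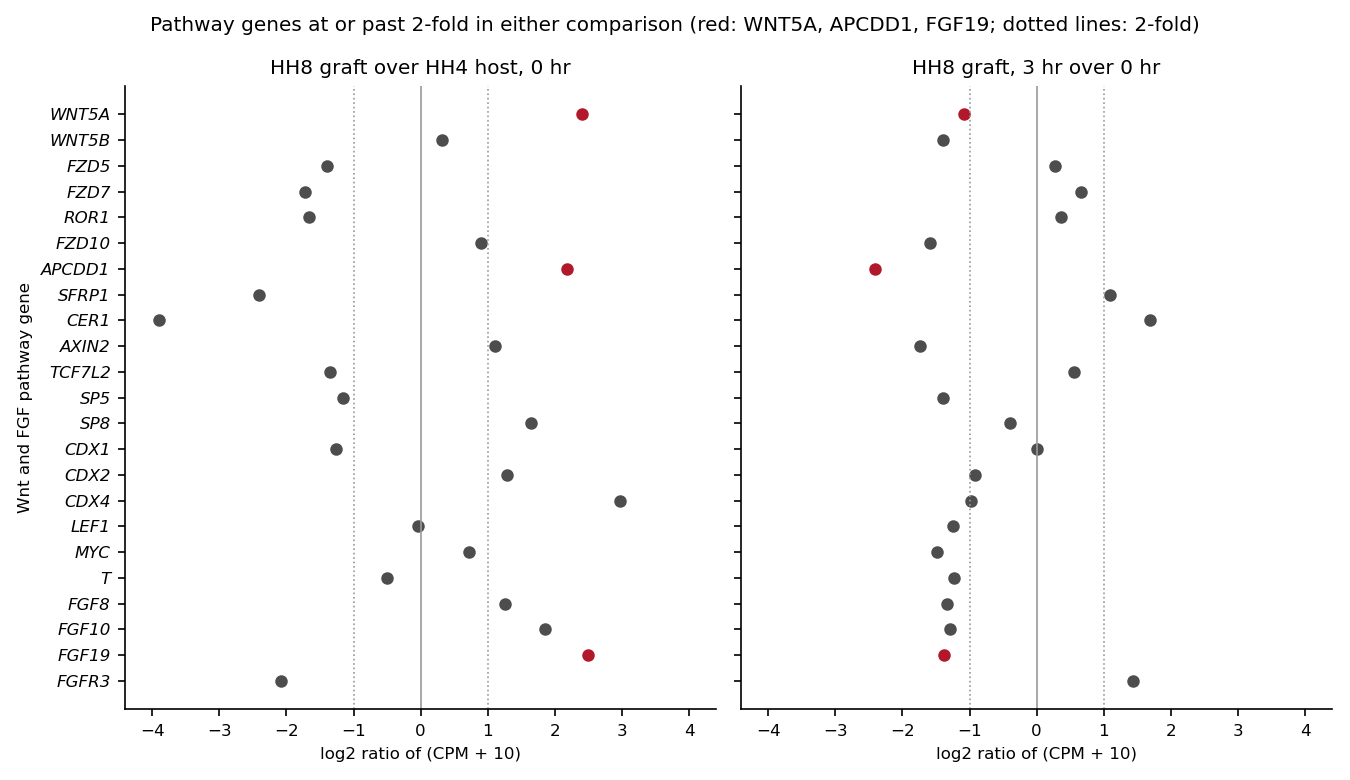
Log2 ratios (10 CPM added) of Wnt and FGF pathway genes that reached 2-fold in HH8 grafts against hosts at 0 hr (left) or in HH8 grafts at 3 hr against 0 hr (right), both of which use the HH8 grafts of 0 hr. WNT5A, APCDD1 and FGF19 (red) lie right of 0 on the left and left of 0 on the right, with -2.41 for APCDD1.

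Genes with the most similar profile were sought over the 8 groups of graft and host barcodes among 4750 genes, with Pearson's r of log2 values after adding 10 CPM. The groups come in pairs from 4 libraries, so r is a description only. For WNT5A the 5 closest genes were LIN28A, CALM2, TMEM123, SOCS2 and CDX4, with r between 0.975 and 0.979. LIN28A, an RNA-binding factor of early developmental timing, was at 340 CPM in HH8 grafts at 3 hr and 600 CPM at 0 hr. For APCDD1 they were BMP4, HOXB3, LOC419112, CHIC1 and CDX2, with r between 0.952 and 0.979.

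The closest genes to FGF19 were NPPA, PKIB, MSX2, CCSER2 and TCP11L1, with r between 0.967 and 0.983. NPPA and PKIB were rare, at no more than 11.1 and 4.56 CPM in any group. Their levels thus lay near or below the 10 CPM added, which limits what their r can say. MSX2, a homeobox target of BMP signalling, was at 76.6 CPM in HH8 grafts at 3 hr and 273 CPM at 0 hr. For NDP, the genes MXD4, DPYSL4, SRSF10 and FZD10 had r between 0.939 and 0.965. Among the 4 genes themselves, WNT5A and APCDD1 (r = 0.906) and APCDD1 and NDP (r = 0.900) were closest, and FGF19 and NDP farthest apart (r = 0.259). WNT5A was about as close to NDP (r = 0.717) as to FGF19 (r = 0.693). With CDX4, r was 0.975 for WNT5A, 0.903 for APCDD1, 0.752 for NDP and 0.575 for FGF19. With HOXA7 it was 0.920 for FGF19, 0.720 for WNT5A, 0.417 for APCDD1 and 0.152 for NDP. With HOXB8 it was 0.928 for WNT5A, 0.807 for FGF19, 0.700 for APCDD1 and 0.417 for NDP, so the order of the genes differed between the HOX markers.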

How the data were processed

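Single cells from grafted regions were sequenced as 10x 3′ libraries, and the authors made the counts with Cell Ranger 6.1.1 on the galGal6 genome, per the labels. The deposited values are UMI counts per gene and barcode, with depth ranging from 8970436 to 40735693 UMIs per library. A barcode needed 2000 UMIs, and 3 eGFP UMIs (graft) or 0 (host). Counts were summed by group and scaled to CPM. Intervals (95%) are exact Poisson for levels, exact conditional binomial for ratios and Clopper-Pearson for shares. Fold counts used log2(CPM + 10) over genes with at least 100 UMIs in both groups together. Shares were read after thinning to 2000 UMIs (seed 1). A barcode was assigned to a marker list at 2 times or more its mean level, 1.5 times or more the next list and at least 3 UMIs. No doublet caller was run, and the deepest 5% of barcodes were left out as an alternative. The HH4-HH4 3 hr table lists 6939 genes and the others 6940, so a gene missing from a table was left out of comparisons with it.

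The members and lists were chosen with earlier results of these data known. Named were the 4 genes, HOXA7, HOXB8 and CDX4, pathway genes past 2-fold in either HH8 graft contrast with at least 100 UMIs, and the 5 genes most like each member, of which 1 is not reported here. WNT8A, FZD4, LRP5 and single levels of other groups were added after their values were seen. The other HH4-HH4 0 hr deposit, whose features carry no symbols, shared 2755 of its 3098 barcodes with the one used and had 0 GFP UMIs. Scripts used Python 3.11.15, numpy 2.4.6, scipy 1.17.1, pandas 2.3.3 and matplotlib 3.10.9, and were tested on simulated counts. Genome positions and sequences were not used here.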

Additional observations from a re-analysis of the deposited data

Results flagged for a closer look

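In 7 cases a gene differed between 3 hr and 0 hr in opposite directions in the heterochronic and the homochronic libraries. None of these differences was tested, since each time and graft type is 1 library. Between grafts, the log2 difference of WNT5A was -1.08 in HH8 grafts and 1.70 in HH4 grafts, that of APCDD1 -2.41 and 2.44, and that of NDP -1.60 and 1.16. Between hosts, that of WNT5A was -1.13 in hosts of HH8-HH4 and 2.13 in hosts of HH4-HH4, that of FGF19 0.28 and -0.17, that of APCDD1 -1.31 and 2.59, and that of NDP -1.74 and 1.17.

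Barcodes with 1 or 2 eGFP UMIs belong to neither graft nor host and were left out of the comparisons. In HH8-HH4 at 0 hr, 210 such barcodes had 193 CPM of WNT5A against 109 CPM in hosts, 146 against 105 CPM of FGF19 and 102 against 66.5 CPM of APCDD1. Their HOXA7 level was 312 CPM, against 24.5 CPM in hosts.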

How the results depend on the processing

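No paired analysis was possible because each condition is 1 library, so that the groups compared share fewer than 2 replicate numbers. No result changed its direction under an alternative. The values that left the counting interval of the reported value, or a range of 1.5 times for counts, are given as log2 ratios unless another unit is named. The cause was not tested.

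HH8 grafts against hosts at 0 hr gave FGF19 2.38 and WNT5A 2.31 with 1 eGFP UMI as the minimum, FGF19 2.57 without the deepest 5% of barcodes, FGF19 2.56 and WNT5A 2.47 with median ratio scaling, and APCDD1 2.32, FGF19 2.58 and WNT5A 2.49 with 1 CPM added. Restrictions chosen after the values were seen gave APCDD1 1.25, WNT5A 1.68 and NDP 0.23 in barcodes with CDX4, and APCDD1 1.70, FGF19 2.24, WNT5A 2.20 and NDP 0.92 in barcodes of no list. At 3 hr, grafts against hosts gave APCDD1 0.66, FGF19 0.60 and WNT5A 1.89 with 1 eGFP UMI as the minimum, and FGF19 0.54 with 10.

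HH8 grafts at 3 hr against 0 hr gave APCDD1 -2.74 and WNT5A -1.54 with 1 eGFP UMI as the minimum, FGF19 -1.66 with 10 and FGF19 -1.24 with equal weight per barcode. They gave APCDD1 -2.03, FGF19 -1.22 and WNT5A -0.90 in barcodes with CDX4, APCDD1 -1.43 and WNT5A -0.76 in ectoderm-marked barcodes, and APCDD1 -2.88 and FGF19 -1.20 in barcodes of no list.

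For HH8 against HH4 grafts at 3 hr, 0 of the 4 genes in place of 1 were 2-fold higher with an eGFP minimum of 1 or 10 UMIs or without the deepest 5%, and 1 in place of 2 was 2-fold lower with equal weight per barcode. At 1.5-fold, pathway entries in HH8 grafts against hosts at 0 hr numbered 16 higher in place of 9 and 15 lower in place of 9, and at 3 hr against 0 hr 5 higher in place of 3. Thinned to 1000 UMIs, shares in HH8 grafts at 3 hr were 31.0% for WNT5A and 4.31% for APCDD1, and at 0 hr 44.6% for WNT5A, 43.8% for FGF19, 26.3% for APCDD1 and 4.19% for NDP. With a ratio of 3 for assignment, ectoderm-marked HH8 grafts at 0 hr had 693 CPM of WNT5A, 654 CPM of FGF19 and 33.6 CPM of NDP.

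The other deposit of HH4-HH4 0 hr could not be run in place of the one used, since 0 of its features matched a symbol. NDP at 3 hr rests on 18 graft and 8 host UMIs in HH8-HH4.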
